A study of Mus musculus with 12 samples.

Results

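The 10 genes Polr2a to Polr2j encode subunits of RNA polymerase II, and their transcripts were followed through 3 stages of mouse oocyte development with and without the RNA-binding proteins ZAR1 and ZAR2. The genes were taken by name, as 10 of the 23230 gene rows measured. They were selected on the level of Polr2j, which had been seen much higher in MII oocytes lacking ZAR1 and ZAR2, so the levels of all 10 genes in MII oocytes of the 2 genotypes, and the fall of Polr2j into MII, are described here without a test. All 10 reached 1 FPKM (a fragment count corrected for transcript length and for the size of the library) in at least 1 library, as did 11502 genes in all, and all 10 were tested with these.

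The 12 libraries formed 6 groups of 2. Growing oocytes came from 13.5-day-old females by the sample labels, while the study's methods give a younger age. Fully grown oocytes with an intact nucleus (germinal vesicle, GV) came from 21-day-old females, 44 h after PMSG, a hormone that stimulates follicle growth. MII oocytes, named for metaphase of meiosis II, were ovulated and taken 16 h after hCG, a hormone that triggers ovulation. Each stage was collected from wild-type (WT) and Zar1/2-null mice, both on a C57BL6/ICR hybrid background, with 10 oocytes pooled in each library, and no source used here says whether the libraries of a group came from different animals, so the spread between them may be technical. In the null mice, CRISPR/Cas9 had left a small deletion with an early stop in Zar1 and a frame-shifting deletion in Zar2, which the files list as Zar1l. As the study describes them, many ovulated null oocytes had stopped within meiosis I, so the null "MII" libraries differ from WT in meiotic stage as well as in genotype. RNA was copied from oligo-dT primers, so a change in the amount of an mRNA and a change in the length of its poly(A) tail cannot be told apart.

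RNA polymerase II makes the mRNA of nuclear genes. Its largest subunits, encoded by Polr2a and Polr2b, form both faces of the DNA cleft and hold the active site, and the tail of the Polr2a product recruits the factors that cap, splice and end transcripts. The products of Polr2c and Polr2j pair to start assembly of the core, those of Polr2d and Polr2g form a stalk that can leave the core, that of Polr2i sits at the jaw and takes part in proofreading, and those of Polr2e, Polr2f and Polr2h are shared with RNA polymerases I and III. Growing oocytes transcribe actively, fully grown oocytes fall silent, and during maturation stored maternal mRNAs are translated or cleared with little new synthesis.

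The last bases of these mRNAs are shown because the processing signals there, the poly(A) signal that directs cleavage and the cytoplasmic polyadenylation element (CPE) that can lengthen the tail during maturation, lie in the part of the mRNA that oligo-dT priming starts from. Windows of 30 bases were read from the mouse genome build NCBIM37 (mm9) with the GENCODE vM1 transcripts, 5′ to 3′ on the mRNA strand, with the motif in capitals. For the transcripts that fell furthest between WT GV and MII oocytes, Polr2e, Polr2i and Polr2j, and for Polr2c, the one that kept the most, the poly(A) signals were these.
Polr2e (chr10:79498700-79498729, minus strand): actctcctgagaATTAAAggatactttgat
Polr2i (chr7:31018375-31018404, plus strand): tcttccacctgtAATAAAtgccagtttcta
Polr2j (chr5:136598782-136598811, plus strand): tgttgttttcctAATAAAagcagagcagaa
Polr2c (chr8:97388109-97388138, plus strand): tgcacggtagtcAATAAAtaccagcactag
CPE letters were searched as TTTTAT or TTTTAAT on the mRNA strand of the last 100 bases of the 3′ UTR. They were found in 4 of the 10 genes, against 17.7% of 18058 mouse genes with a 3′ UTR of at least 100 bases. Of the 10008 of these that were tested here, 20.3% had them. The 4 genes were Polr2b, Polr2d, Polr2f and Polr2h, and 3 of these windows were as follows.
Polr2b (chr5:77778272-77778301, plus strand): ttgtgataagaaTTTTATttgttttgttta
Polr2f (chr15:78982150-78982179, plus strand): tctctgtgcccgTTTTATatgtgtaaataa
Polr2h (chr16:20722304-20722333, plus strand): gtatatgattttTTTTATtaaagttttctt
In Polr2h the CPE letters overlapped the poly(A) signal ATTAAA. A poly(A) signal (AATAAA or ATTAAA, last 40 bases) was found in 9 of the 10, all but Polr2d, against 75% of the 18058 genes. The 3′ UTRs of Polr2f and Polr2i, at 95 and 43 bases, were shorter than the window searched for CPE letters, so both genes fall outside the background set. A match is a description of the letters only.

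The values are the deposited FPKM, already multiplied by a factor from the ERCC spike-in RNA added to each lysate, so that a lower total of oocyte mRNA lowers all genes together. The factors ran from 0.225 in WT MII to 1 in WT growing oocytes, and the files hold no read counts. The study's supplement lists read totals per library, which were not used here, and no counting error is given. The targeted transcripts bore on the genotype labels to different degrees. Zar1l had a mean of 519 FPKM in WT GV and 20.3 FPKM in null GV oocytes and lay lower in the null libraries at every stage, whereas Zar1 kept 169 FPKM in null GV oocytes against 431 FPKM in WT and checks little, since its deletion is small. All 10 oocyte markers examined were at 4.54 FPKM or more in every library, and the granulosa and cumulus markers summed to 4.31 to 27.5 FPKM, with Ptx3 at 0 in all libraries and Amh in 11 of 12. Cyp19a1, the highest of these markers by median (7.36 FPKM), ran from 2.53 to 19.0 FPKM. Fshr, Kitl and Hsd3b1 were above 0 in every library and reached 1.24, 2.58 and 2.04 FPKM, and Inha reached 3.11 FPKM. The granulosa sum was 23.4 to 27.5 FPKM in WT growing and 7.85 to 12.03 FPKM in null growing libraries. It was 13.4 to 15.5 in WT GV and 9.43 to 11.2 in null GV, and 4.31 to 4.43 in WT MII and 6.06 to 7.26 in null MII, and its part in the results was not tested.

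In WT growing and GV oocytes the transcripts spanned levels from 0.830 FPKM for Polr2a to 1050 FPKM for Polr2j. FPKM is corrected for transcript length, and on that basis levels are set side by side between genes here. Other effects of transcript length under oligo-dT priming were not tested, so the order is one of FPKM. The transcript of Polr2j has 646 bases and that of Polr2a 6740. In WT growing oocytes Polr2j stood highest at 1050 and 1013 FPKM and Polr2d followed at 698 and 723 FPKM. Polr2c (410 and 431 FPKM) and Polr2g (421 and 391 FPKM) overlapped. Polr2i (206 and 234 FPKM), Polr2f (199 and 199 FPKM) and Polr2e (123 and 143 FPKM) came next, each apart from its neighbour. Polr2b, for the large subunit opposite Polr2a, had 37.2 and 39.2 FPKM. Polr2h was at 25.3 and 24.5 FPKM. Polr2a had 1.320 and 1.395 FPKM, at percentiles 13.7 and 14.7 of the genes tested in these libraries, while Polr2j was at percentile 99.3 in both. The order in WT GV oocytes was the same except that Polr2g stood above Polr2c, and there the libraries of Polr2j and Polr2d overlapped, as did those of Polr2b and Polr2h.

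**Figure D1:**
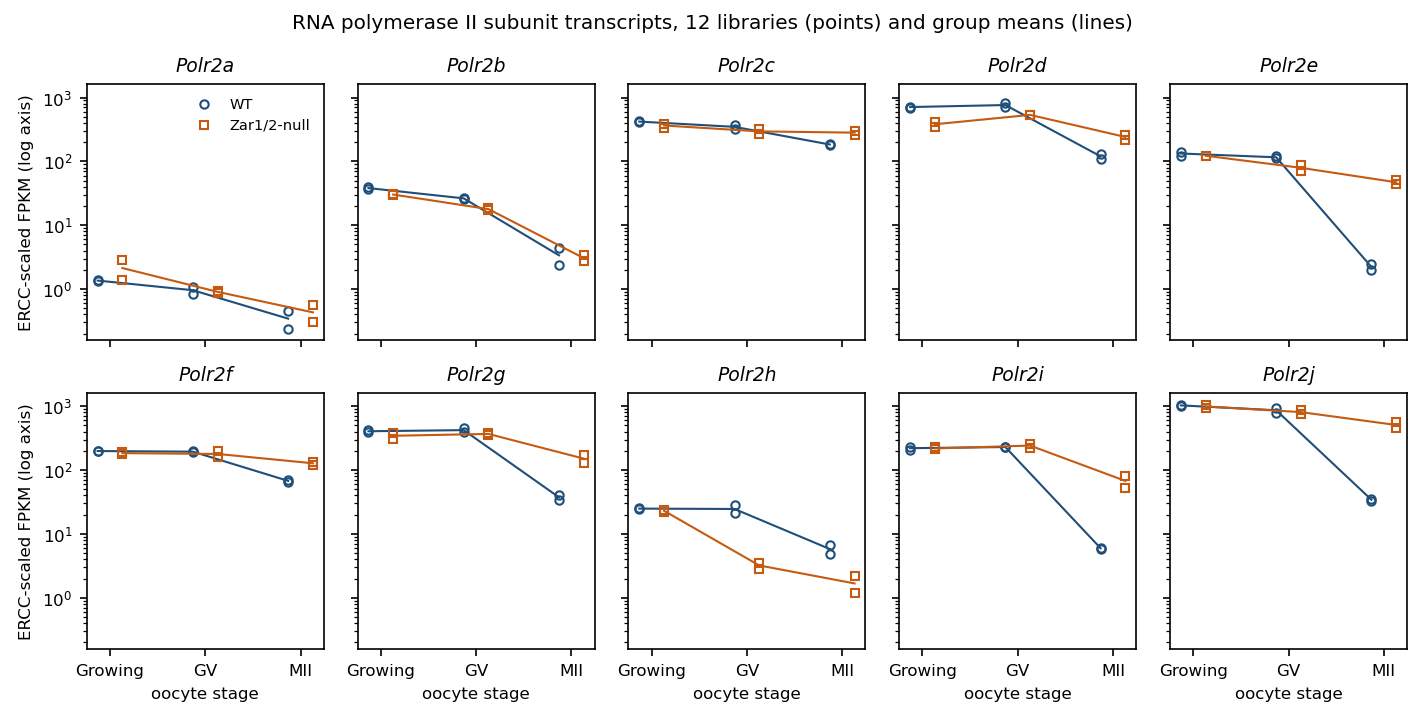
ERCC-scaled FPKM on a logarithmic axis for each of the 10 genes at 3 stages, with circles for the 2 WT and squares for the 2 Zar1/2-null libraries and lines through the group means. Polr2e, Polr2i and Polr2j drop steeply from GV to MII in WT, whereas Polr2h drops from 23.0 to 3.20 FPKM between null growing and null GV oocytes.

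In fully grown GV oocytes the loss of ZAR1 and ZAR2 went with lower levels of 4 of the 10 transcripts, and Polr2h stood apart from the others. Polr2h, for a small subunit found in all nuclear RNA polymerases, had 28.1 and 21.1 FPKM in the WT GV libraries and 2.86 and 3.54 FPKM in the null GV libraries. Both null libraries lay far below both WT libraries, and the WT mean of 24.6 FPKM was 7.67 times the null mean of 3.20 FPKM. On the log2(FPKM + 1) scale, on which all differences are given and which understates the change of low genes, Polr2h fell by 2.60 (SE 0.21, adjusted p = 1.38e-05, limma with Benjamini-Hochberg adjustment over 11502 genes).

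The other 3 genes called at GV moved far less. Polr2e, also shared between polymerases, had 120 and 112 FPKM in WT and 71.7 and 87.0 FPKM in null oocytes, a difference of -0.55 (SE 0.16, adjusted p = 0.0167, limma). Polr2b had 27.1 and 25.6 FPKM in WT and 18.3 and 17.5 FPKM in null oocytes. Its difference was -0.53 (SE 0.19, adjusted p = 0.0426, limma). Polr2d, for a stalk subunit, had 820 and 707 FPKM in WT and 539 and 531 FPKM in null oocytes. Its difference was -0.51 (SE 0.17, adjusted p = 0.028, limma). In none of these 3 did the libraries of the genotypes overlap, and over the 10 genes 6 had both null libraries below both WT libraries, as did 63.6% of all genes. Without WT GV replicate 1, or without null GV replicate 1, Polr2h alone was called, and without null GV replicate 2 Polr2h and Polr2e were. The call for Polr2b was lost in 10 of the 12 fits that left out 1 library, those without a WT MII library being the exceptions.

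Of all genes tested, 40.6% were called lower and 2.83% higher in null GV oocytes, so 4 of 10 called lower was close to the background. The median difference over the 10 genes was -0.22, against -0.38 over all genes tested. Without the ERCC factor the median over all genes was -0.03, the calls for all genes split into 7.19% higher and 13.5% lower, and of the 10 genes Polr2h alone kept its call, with a difference of -2.29 (adjusted p = 5.63e-05, limma). The other 3 then lay between -0.10 and -0.06. When each library was scaled by its median instead, the split was 9.73% higher and 9.32% lower, Polr2h was at -1.98 (adjusted p = 0.000367, limma), and Polr2i was called higher by 0.66 (adjusted p = 0.0262, limma). The remaining 6 genes at GV in the fit with the ERCC factor ran from -0.24 (Polr2c) to 0.07 (Polr2i) and did not pass, among them Polr2j at -0.10 (SE 0.17), with 932 and 798 FPKM in WT and 875 and 744 FPKM in null oocytes.

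**Figure D2:**
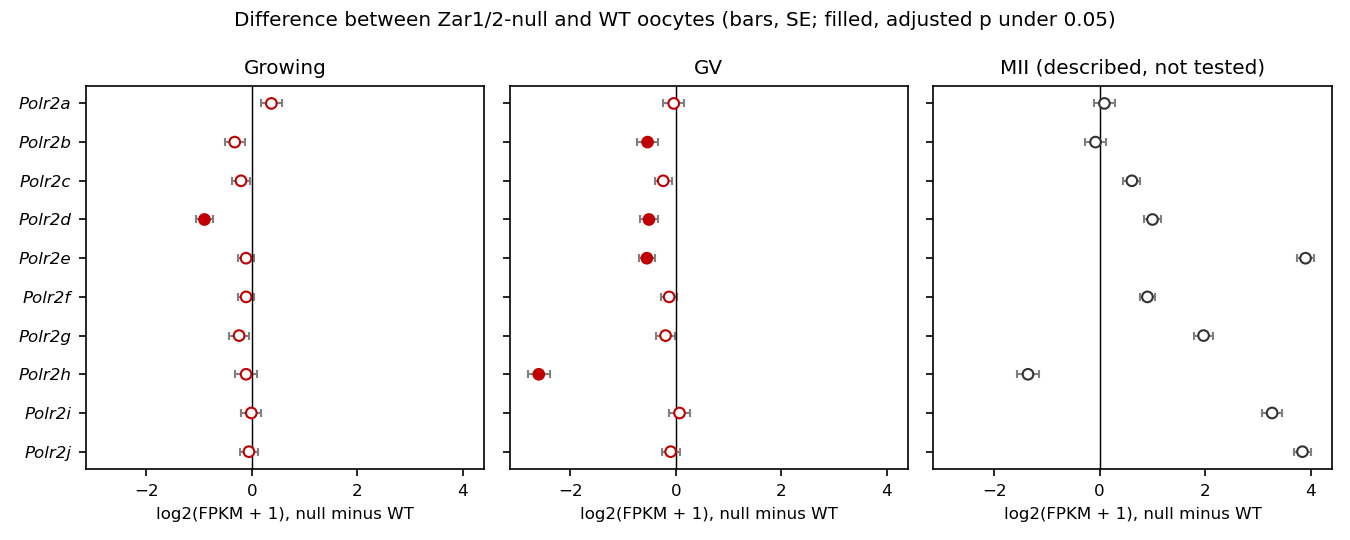
Difference between Zar1/2-null and WT oocytes in log2(FPKM + 1) for the 10 genes at the 3 stages, with bars for the standard error and filled points for adjusted p under 0.05 in growing and GV oocytes, the MII values being shown without a test. Polr2h lies at -2.60 in GV oocytes with all others between -0.55 and 0.07, and in MII oocytes the values run from -1.36 to 3.90.

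In growing oocytes 1 of the 10 genes was called. Polr2d had 698 and 723 FPKM in WT and 414 and 349 FPKM in null growing oocytes, and the null libraries lay well below the WT libraries. The difference was -0.90 (SE 0.17, adjusted p = 0.00178, limma), and it was -0.61 (adjusted p = 0.00409, limma) without the ERCC factor and -0.72 (adjusted p = 0.011, limma) with scaling by the median. Its partner in the stalk, Polr2g, had 421 and 391 FPKM in WT and 380 and 309 FPKM in null oocytes, a difference of -0.24 that did not pass (adjusted p = 0.344, limma). The background was 10.6% of genes called higher and 24.4% lower, or 14.9% higher and 12.3% lower without the ERCC factor and 10.7% and 12.8% with scaling by the median. In 6 of the 10 both null libraries lay below both WT libraries, as in 47.4% of all genes. Polr2h was at 25.3 and 24.5 FPKM in WT and 23.7 and 22.4 FPKM in null growing oocytes (difference -0.11, SE 0.21). Polr2a read 1.395 and 2.87 FPKM in the null growing libraries, and without null growing replicate 1 it would be called higher by 0.72 (adjusted p = 0.00902, limma).

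The deficit of Polr2h therefore differed between the stages, and the difference was tested. The knockout difference at GV minus that in growing oocytes was -2.49 for Polr2h (SE 0.30, adjusted p = 0.00101, limma interaction term), the only one of the 10 to pass, where 11.3% of all genes passed in that direction and 2.58% in the other. It was -2.46 without the ERCC factor and -2.04 with scaling by the median, with adjusted p of 0.0019 and 0.0096 (limma), where the shares of all genes passing were 3.72% and 1.67% in that direction and 2.22% and 2.23% in the other. Without null growing replicate 1, Polr2a would also pass, at -0.76. For Polr2d, the reverse order of the 2 knockout differences was not called (0.39, SE 0.23, adjusted p = 0.292, limma).

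Over the end of growth, from growing to GV oocytes, none of the 10 genes passed in WT (28.7% of all genes were called lower and 2.77% higher, without the ERCC factor 3.23% and 3.66%, and with scaling by the median 2.64% and 2%). At an unadjusted limma p under 0.05, 1 of the 10 passed, Polr2b, and 5129 of all genes did. The largest of the WT differences was -0.52 for Polr2b (adjusted p = 0.06, limma), which passed when either WT MII library was left out of the fit (0.023 each). In null oocytes 4 genes fell and 1 rose. Polr2h went from 23.7 and 22.4 FPKM to 2.86 and 3.54 FPKM, a difference of -2.52 (SE 0.21, adjusted p = 7.14e-06, limma), and its null GV level was 13.9% of its null growing level. Polr2a, Polr2b and Polr2e fell by 0.68, 0.73 and 0.63, with adjusted p of 0.0125, 0.00705 and 0.00549 (limma). Polr2d, low in null growing oocytes, rose by 0.49 (adjusted p = 0.0233, limma), from 414 and 349 FPKM to 539 and 531 FPKM. With the replicate number as a block Polr2j also fell, at -0.30 (adjusted p = 0.038, limma). The call for Polr2d was lost without null growing replicate 2 or either null GV library, and that for Polr2a without null growing replicate 2 or null GV replicate 2. The background in null oocytes was 55.9% lower and 4.76% higher. Without the ERCC factor it was 21.3% lower and 14.3% higher, Polr2h still fell, and Polr2d, Polr2f, Polr2g and Polr2i were called higher. With scaling by the median, where 14.2% of genes were lower and 19.3% higher, these 4 and Polr2c were called higher.

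During WT maturation, from GV to MII, the 10 transcripts were lost to very different degrees. Polr2e went from 120 and 112 FPKM to 2.45 and 1.98 FPKM, so that MII oocytes held 1.91% of the GV level. Polr2i, for the jaw subunit, went from 228 and 231 FPKM to 5.90 and 6.02 FPKM, or 2.60%. Polr2j, whose WT MII level was part of what selected the genes and is given without a test, went from 932 and 798 FPKM to 35.8 and 32.8 FPKM, or 3.96%. For each of these 3 genes both MII libraries lay far below both GV libraries.

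The stalk pair came next, with Polr2g at 8.87% (454 and 391 FPKM to 40.4 and 34.6 FPKM) and Polr2d at 15.7% (820 and 707 FPKM to 130 and 110 FPKM). Polr2b kept 12.8% and Polr2h 23.6%. Polr2f kept 34.9%, at 69.3 and 66.1 FPKM, and Polr2a kept 35.8% of a level already under 1.1 FPKM. Polr2c, the assembly partner of Polr2j, kept the most, 52.9%, at 189 and 179 FPKM in MII oocytes. Of these partners, Polr2j had the higher FPKM in WT growing and GV oocytes, and Polr2c had it in WT MII oocytes.

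All 9 genes tested were called lower in WT MII oocytes, as were 93.4% of all genes tested, while 0.104% were higher. The differences ran from -5.19 (Polr2e, SE 0.16, adjusted p = 1.95e-10, limma) to -0.55 (Polr2a, SE 0.20, adjusted p = 0.0215, limma), and Polr2j lay at -4.62. The call for Polr2a was lost without WT GV replicate 2 or WT MII replicate 1. All 10 had both MII libraries below both GV libraries, as did 97.1% of all genes. The median over the 10 was -2.67, against -1.28 over all genes. Over the 10-fold mark were 4 of the 10, namely Polr2e, Polr2i, Polr2j and Polr2g, against 15.7% of all genes tested, and Polr2j is one of these by choice. Group means under 1 FPKM were set to 1 for this count, so no gene under 10 FPKM in WT GV oocytes could pass. The 15.7% is a share of a total that includes such genes, so nothing is read from the count. Among the 4914 genes with at least 10 FPKM in WT GV oocytes, the median MII level was 18.8% of GV. These figures depend on the ERCC factor, which was 0.697 to 0.836 in WT GV and 0.225 to 0.228 in WT MII libraries. Without it the median over all genes was -0.43, 47.6% of genes were lower and 19.7% higher, 5 of the 9 were called lower (Polr2b, Polr2d, Polr2e, Polr2g and Polr2i), and Polr2c was called higher by 0.84 (adjusted p = 4.16e-05, limma). With scaling by the median, 41.8% of genes were higher and 31.3% lower, 3 of the 9 were lower (Polr2e, Polr2g and Polr2i) and 4 higher (Polr2a, Polr2c, Polr2f and Polr2h). Polr2e, Polr2g and Polr2i were called lower under all 3 scalings, and Polr2j was at -2.89 and -1.94 without and with scaling by the median.

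In null oocytes the same step left most transcripts closer to their GV level. Polr2j had 875 and 744 FPKM in null GV and 565 and 451 FPKM in null MII libraries, or 62.8% of GV. Polr2e kept 59.4% (71.7 and 87.0 FPKM to 50.3 and 43.9 FPKM), and Polr2i 27.9% (260 and 224 FPKM to 82.0 and 53.3 FPKM). The others ran from 17.1% for Polr2b and 41.0% for Polr2g to 71.4% for Polr2f and 95.5% for Polr2c. In 9 of the 10 both MII libraries lay below both GV libraries (84.6% of all genes), and in Polr2c they overlapped, at 267 and 323 FPKM in GV and 305 and 259 FPKM in MII. Over the 4885 genes of the same expressed set with a value, the null median was 37.7%. Without the ERCC factor 6 of the 10 were above their null GV level, from Polr2a at 101% to Polr2c at 199%, and the median over the 10 was 0.02 in place of -0.71.

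**Figure D3:**
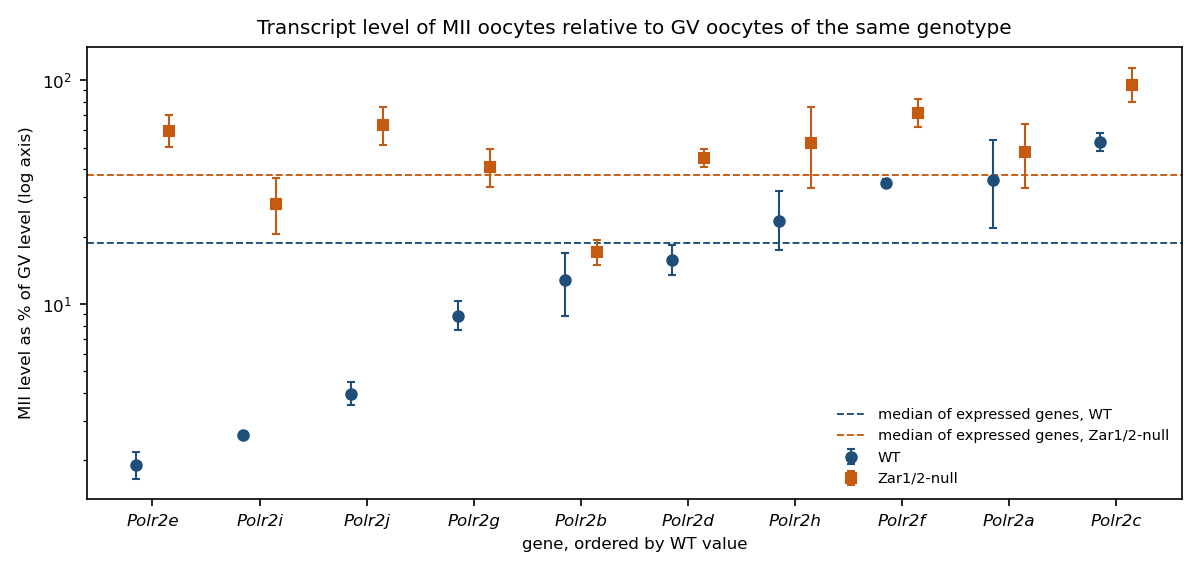
MII level as a percentage of the GV level of the same genotype on a logarithmic axis, for each gene in order of its WT value, with bars from the lowest to the highest ratio that the 2 MII and 2 GV libraries allow. Dashed lines mark the medians of genes with at least 10 FPKM in WT GV oocytes, 18.8% in WT and 37.7% in null, and Polr2e moves from 1.91% in WT to 59.4% in null oocytes while Polr2b moves from 12.8% to 17.1%.

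Set side by side in MII oocytes, 7 of the 8 small subunit transcripts were higher in both null libraries than in both WT libraries, and neither large subunit was. Of all genes tested 43.5% were higher and 27.8% lower in this sense, and since this contrast chose the genes nothing is read from the count. Polr2j had 35.8 and 32.8 FPKM in WT and 565 and 451 FPKM in null MII oocytes. It was not the gene with the largest ratio, since Polr2e had 2.45 and 1.98 FPKM in WT and 50.3 and 43.9 FPKM in null oocytes, a ratio of means of 21.2 against 14.8 for Polr2j and 11.3 for Polr2i. Polr2g followed at 4.03, then Polr2d at 2.01, Polr2f at 1.89 and Polr2c at 1.53.

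Polr2a had 0.239 and 0.449 FPKM in WT and 0.309 and 0.553 FPKM in null oocytes, and Polr2b had 2.40 and 4.35 FPKM in WT and 3.38 and 2.73 FPKM in null oocytes. Both overlapped between genotypes. Polr2h was the exception among the small subunits, at 6.72 and 4.87 FPKM in WT and 2.18 and 1.17 FPKM in null MII oocytes, where the WT mean was 3.46 times the null mean. By the study's criterion of a mean changed more than 3-fold with values under 1 FPKM set to 1, 4 of the 10 were higher (Polr2e, Polr2g, Polr2i and Polr2j) and 1 was lower (Polr2h) in null MII oocytes, where 7.49% and 1.32% of all genes tested were. The same criterion gave Polr2h alone, lower, at GV (4.2% of all genes) and none in growing oocytes (3.54% lower and 0.982% higher). The order of the MII differences was much the same without the ERCC factor, at 4.04 for Polr2e, 3.63 for Polr2j, 3.18 for Polr2i and -1.91 for Polr2h.

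Annotated neighbours limit some of these values, because Smart-seq2 libraries carry no strand. Polr2i shares 39.7% of its exon bases with Tbcb on the opposite strand, and Tbcb moved much as Polr2i did, with 107 and 89.7 FPKM in WT GV, 1.401 and 1.913 FPKM in WT MII, and 45.6 and 37.2 FPKM in null MII oocytes. Polr2j shares 27.2% of its exon bases with Lrwd1, which had at most 7.32 FPKM in any library. Polr2c shares 26.3% with Dok4 (3.95 to 29.7 FPKM), and Polr2h 8.63% with Clcn2 (at most 0.749 FPKM). Polr2b shares 2.05% with Igfbp7 on the opposite strand and lies mostly within a same-strand model, AC141469.5. Reads from such shared stretches cannot be told apart. For Polr2e, Polr2a, Polr2d, Polr2f and Polr2g no exon overlap was annotated. On mm9, Polr2j lies at chr5:136592501-136598817, Polr2e at chr10:79498694-79502540, Polr2h at chr16:20717738-20722340 and Polr2i at chr7:31016967-31018409.

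The balance of small against large subunits was measured within each library as the mean log2 FPKM of the 8 small subunits minus that of Polr2a and Polr2b, so that the ERCC factor cancels. In WT growing libraries it was 5.17 and 5.13, in WT GV 5.76 and 5.44, in null growing 5.14 and 4.49, and in null GV 5.30 and 5.39. Across growing and GV oocytes the null libraries differed by -0.29 on average (two-sided exact permutation within stage, p = 0.111, smallest possible 0.0556), by -0.098 without null growing replicate 2 and by -0.16 without WT GV replicate 1, and the ratio of summed FPKM gave the opposite sign, 0.17 (exact p = 0.167). From growing to GV, over both genotypes, the balance was higher by 0.49 (exact permutation within genotype, p = 0.0556, the smallest possible with 36 arrangements). With summed FPKM it was higher by 0.58, with the same exact p of 0.0556. Polr2j over Polr2a alone was higher by 0.55 (exact permutation within genotype, p = 0.111). With 1 library left out, the balance of the mean log2 values was higher by 0.33 to 0.55. Of the 2 relations tested, neither can reach 0.05, and adjusting over both only raises these p-values.

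In MII oocytes, given without a test, the balance was 5.13 and 4.06 in WT and 6.60 and 5.95 in null libraries. Polr2j over Polr2a alone was at log2 values of 7.23 and 6.19 in WT MII and 10.84 and 9.67 in null MII, against 10.13 and 9.52 in WT GV. Polr2a lay at 0.553 FPKM or less in all 4 MII libraries.

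**Figure D4:**
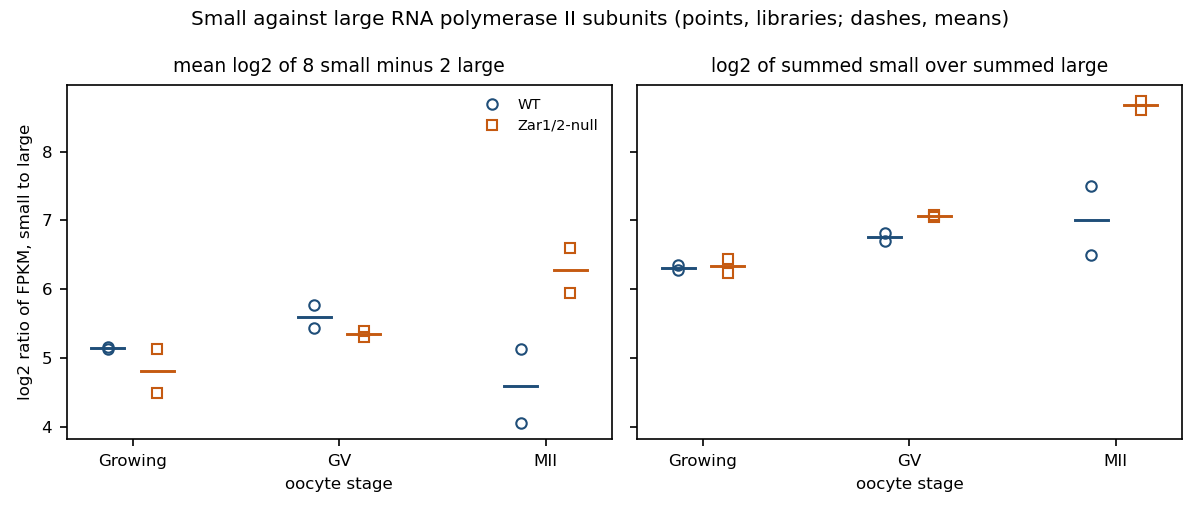
Log2 ratio of small to large subunit FPKM in each library (circles WT, squares Zar1/2-null) with dashes for group means, as the difference of mean log2 values on the left and as the ratio of summed FPKM on the right. The null MII libraries lie highest in both, at 5.95 to 6.60 on the left and 8.61 to 8.74 on the right.

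The remaining subunits and the partners of the polymerase were read from lists of named genes. Polr2k and Polr2l encode small subunits shared between polymerases, and Polr2m a protein that binds the polymerase. Polr2k had 712 and 543 FPKM in WT GV, 8.27 and 5.43 FPKM in WT MII, and 81.8 and 45.5 FPKM in null MII oocytes, so that it kept 1.09% of its GV level in WT and 12.6% in null. It was higher in null than WT MII oocytes by 3.01 (SE 0.29, adjusted p = 9.44e-06, limma), and Polr2l by 2.23 and Polr2m by 1.10, with adjusted p of 1.84e-06 and 0.000401 (limma). Among all genes 21.5% were called higher and 10.3% lower in this comparison, 24.6% and 23.4% without the ERCC factor, and 23.6% and 30.1% with scaling by the median. In GV oocytes Polr2m alone of the 3 was called, lower by 0.69 (adjusted p = 0.0076, limma), and it lost its call without the ERCC factor (adjusted p = 0.252, limma).

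With these 3, 137 genes of the transcription machinery outside the 10 were listed and 134 tested. In null GV oocytes 57 were called lower and 2 higher, with a median of -0.44 against -0.38 over all genes, of which 40.6% were lower and 2.83% higher. Without the ERCC factor 14 were lower and 7 higher with a median of -0.05 (all genes 13.5% and 7.19%), and with scaling by the median 8 were lower and 12 higher (all genes 9.32% and 9.73%). By list, the called genes that were lower numbered 9 of 19 subunits of RNA polymerases I and III, 15 of 36 general transcription factors, 14 of 31 Mediator subunits, 15 of 33 pausing, elongation and CTD factors, and 3 of 12 assembly and import factors, to be read against the 40.6% of all genes. Those higher were 2 general transcription factors. In null MII oocytes 31 of the 134 were higher and 15 lower, against 21.5% and 10.3% of all genes. Their median was 0.00 against 0.06 over all genes, and the 8 small subunits of Polr2c to Polr2j had a median of 1.49. Without the ERCC factor 30 were higher and 40 lower (all genes 24.6% and 23.4%), with a median of -0.19 against -0.01 over all genes. The 8 small subunits then had a median of 1.26. Polr2j is among these 8 and its level in this contrast chose the genes, so nothing is read from their medians beside the others.

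The largest GV differences in each list included partners of Polr2h in the other polymerases. Twistnb, an RNA polymerase I subunit, had 10.9 and 8.70 FPKM in WT and 1.81 and 2.05 FPKM in null GV oocytes (difference -1.88, adjusted p = 1.8e-05, limma). Polr1c, shared by polymerases I and III, was at -1.44 and Polr3k, for a small subunit of polymerase III, at -1.09. Tbpl1, a relative of the TATA-binding protein, went the other way, at 4.39 and 3.33 FPKM in WT and 11.97 and 17.4 FPKM in null GV oocytes (difference 1.68, adjusted p = 0.000102, limma), and it was also higher in null growing oocytes by 2.17.

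The initiation factors Taf11 and Taf7 were at -1.37 and -1.07. The Mediator subunits Med17, Med18 and Med26 were at -1.81, -1.43 and -0.83. Ccnt1, the cyclin of the kinase that releases paused polymerase, was at -1.52, with Ctdspl at -1.08 and Cdc73, of the elongation complex PAF1, at -0.93. Of the assembly factors, Ruvbl1 was at -1.02, Slc7a6os at -0.64 and Rpap3 at -0.59. Without the ERCC factor Twistnb, Polr1c, Polr3k, Tbpl1, Taf11, Taf7, Med17, Med18, Ccnt1, Ctdspl and Ruvbl1 were still called in the same direction, and Med26, Cdc73, Slc7a6os and Rpap3 were not. With scaling by the median Polr3k, Taf7 and Ruvbl1 lost their calls as well (adjusted p = 0.138, 0.0525 and 0.0552, limma).

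Over the 12 libraries, the genes whose log2(FPKM + 1) followed Polr2j most closely, among 2414 genes with at least 50 FPKM in a library, were Nedd8 (Pearson r = 0.999), Mif, Ndufa6, Uqcrh and Sh3bgrl3 (each r = 0.998). Uqcrh, for a small subunit of respiratory complex III, had means of 568 FPKM in WT GV, 11.4 FPKM in WT MII and 320 FPKM in null MII oocytes. Among the RNA polymerase II genes Polr2e ranked 59th with r = 0.993 and Polr2i 194th with r = 0.980, while Polr2c, the partner of Polr2j, ranked 502nd with r = 0.904. All genes of a library share its ERCC factor, and 93.4% of the genes tested were called lower in WT MII than in WT GV oocytes. Without the factor the 5 closest were Atpif1, Ndufv3, Uqcrh, Phpt1 and Cox7c, and r was 0.979 for Polr2e and -0.224 for Polr2c.

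The coding lengths ran from 354 bases for Polr2j to 5913 for Polr2a, with 3525 for Polr2b, 828 for Polr2c and 378 for Polr2i. Across the 10 genes, the rank correlation of coding length with the WT MII minus GV difference was 0.43, and with the null minus WT difference in MII oocytes -0.50 (Spearman, n = 10 genes, which share libraries and are not independent). Over 10765 genes tested with a coding length the same values were 0.26 and -0.25. For null minus WT in GV oocytes they were -0.31 for the 10 genes and -0.15 for all. Among the 4696 of these genes with at least 10 FPKM in WT GV oocytes the values were 0.32 for WT MII minus GV, -0.35 for null minus WT in MII and -0.25 in GV oocytes. Polr2h (453 bases) and Polr2i (378 bases) are of near length and had the lowest and the highest of the 10 differences between null and WT GV oocytes.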

How the data were processed

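Each library was made from 10 oocytes by Smart-seq2 with oligo-dT priming and ERCC spike-ins. Per the paper's methods and the submitters' processing notes, reads were trimmed to 50 bp, aligned to mm9 with TopHat2 2.1.1 and quantified with Cufflinks 2.2.1. The deposited values are FPKM multiplied by the authors' ERCC factor, which is 1 in both WT growing libraries and elsewhere follows the spike-in share relative to the WT growing library of the same replicate number, so the scaling ties libraries by number. The factor of each library was recovered from the table, where all nonzero values divided by it had 6 significant digits, and values without it were used as an alternative. Log2(FPKM + 1) was fitted for the 11502 genes that reached 1 FPKM in any of the 12 libraries, with limma 3.58.1 (R 4.3.3; 1 term per group, eBayes with a trend, two-sided), with Benjamini-Hochberg adjustment over these genes and calls at 0.05. The step was tested on simulated data. With 2 libraries a group, an exact permutation of 1 gene cannot go below 0.333. The alternatives were no ERCC factor, scaling by the library median, 0.1 FPKM added, a mean of at least 5 FPKM, no filter, no trend, a replicate block, the libraries compared alone, and each library left out. Transcripts came from GENCODE vM1, preferring 1 with a 3′ UTR and a consensus coding sequence, and coding length stood in for protein length because no protein table was used here.

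The genes named were the 10 subunit genes, Polr2k, Polr2l, Polr2m, per list the 3 called genes with the largest difference at GV, the 5 closest to Polr2j, and Zar1 and Zar1l. The overlapping neighbours were added after the annotation was read. The members and lists were chosen with earlier results of these data known. No library was left out of the main results, and no 2 libraries were identical. The oviduct epithelium and immune markers summed to 14.0 to 30.2 FPKM, mostly Cdh1, and 0.458 to 3.12 FPKM.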

Additional observations from a re-analysis of the deposited data

Results flagged for a closer look

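The difference of Polr2h between null and WT oocytes changed between stages by the interaction test, with the difference at GV minus that in growing oocytes at -2.49.

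For 5 genes, all null libraries lay on one side of all WT libraries at an earlier stage and on the other side in MII oocytes. This was not tested, the MII contrast being part of how the genes were chosen. The share of all genes with such a reversal was not counted, so nothing is read from the number of genes. Of all genes, 47.4% had both null libraries below both WT libraries in growing and 63.6% in GV oocytes. In MII oocytes 43.5% had both above. Without the ERCC factor the earlier difference changed sign for Polr2c, Polr2f and Polr2g in growing and for Polr2c and Polr2g in GV oocytes. It kept its sign for Polr2d at both stages and for Polr2e at GV. The MII difference minus that in growing oocytes was 0.82 for Polr2c, 1.90 for Polr2d, 1.01 for Polr2f and 2.21 for Polr2g. The MII difference minus that at GV was 0.85 for Polr2c, 1.51 for Polr2d, 4.45 for Polr2e and 2.16 for Polr2g.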

How the results depend on the processing

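With counts of the 10 genes called, dropping the ERCC factor left 1 lower at GV in null against WT, 1 higher in WT and 4 higher and 1 lower in null from growing to GV, and 1 higher and 5 lower in WT from GV to MII. Scaling by the median gave 1 higher and 1 lower at GV, 5 higher and 1 lower in null from growing to GV, and 4 higher and 3 lower in WT from GV to MII. Fitting only the 4 libraries compared gave 1 lower at GV, against 25.6% of all genes. From growing to GV it gave 1 lower in WT (17.0% of all genes) and 0 higher in null (3.74%). A mean of at least 5 FPKM gave 1 lower in WT from growing to GV, against 29.2% of all genes. The share of all genes called also moved from fit to fit, with 1 library left out too, so nothing is read from the counts. With 1 library left out, the ranges were 0 to 1 higher in growing oocytes, 1 to 4 lower at GV, 0 to 1 lower in WT and 0 to 1 higher in null from growing to GV, and 1 to 2 lower for the interaction.

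The MII difference of Polr2j between null and WT was 3.63 without the ERCC factor and 3.50 with scaling by the median, and 3.68 to 4.01 with 1 library left out. The median over the 10 genes was 0.72 and 0.59. From GV to MII in null oocytes, the median became 0.020 and 0.58, both with the sign reversed, -0.95 with 0.1 FPKM added, and -0.89 to -0.59 with 1 library left out. Polr2j there became 0.39 and 1.06, and -0.84 to -0.51 with 1 library left out. Signs of single differences changed often with the scaling, in 7 of 10 genes in growing and 5 of 10 in GV oocytes for null against WT without the ERCC factor, and in 5 and 8 with scaling by the median. Of the differences called in either fit, those reversed without the ERCC factor were 0.50 for Polr2f in null from growing to GV, and 0.13, 0.84 and 0.23 for Polr2a, Polr2c and Polr2f in WT from GV to MII. With scaling by the median they were 0.032, 0.084 and 0.039 for Polr2b, Polr2d and Polr2e at GV, 0.0054, 0.45, 0.13 and 0.71 for Polr2b, Polr2c, Polr2e and Polr2f in null from growing to GV, and 0.52, 1.78, 0.030, 1.17 and 0.58 for Polr2a, Polr2c, Polr2d, Polr2f and Polr2h in WT from GV to MII. The balance of small to large subunits between null and WT was 0.17 with summed FPKM. The rank correlations with coding length were -0.58 at GV, 0.32 in WT and -0.14 in null from GV to MII without the ERCC factor. The cause was not tested.

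The correlation of deviations between same-numbered libraries ran from -0.12 to 0.16 and exceeded 0.1 in 4 of 15 pairs of groups. At that threshold the main fit was left without a replicate block, although the deposited scaling ties the libraries by number. With the replicate block, 4 genes were lower at GV, as without it, and Polr2j from growing to GV in null passed at -0.30 (adjusted p = 0.038, limma). Over all genes 42.8% were lower at GV with the block, against 40.6% without it. The call for Polr2b at GV was also lost with 0.1 FPKM added and with no filter (adjusted p = 0.0779 and 0.0693, limma), and in 10 of 12 fits with 1 library left out. The files hold no read counts, so no counting error was set on the low values of Polr2a.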
